A study of Mus musculus with 6 samples.

Results

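Respiratory complex I (NADH:ubiquinone oxidoreductase) is the entry point of the mitochondrial electron transport chain, and its nuclear-encoded parts carry gene names that begin with Nduf. All rows of the expression table with such a name and no -ps suffix (the mark of a pseudogene in mouse names) were taken, which gave 46 of 46517 entries. These were 36 structural subunits (7 core and 29 accessory), 8 assembly factors with Ndufaf names, and Ndufa4 and its paralog Ndufa4l2. Ndufa4 and Ndufa4l2 carry the name for historical reasons, since NDUFA4 is now counted as a subunit of cytochrome c oxidase. Poly(A) RNA was measured in cardiomyocytes isolated from hearts of C57BL/6 mice aged 3 months, with 3 libraries from TFEB-/- mice and 3 from wild-type mice. How the TFEB allele was made, in which cells it acts, the sex of the mice and whether 2 libraries can share an animal are not given in the sources used here, so the p-values measure the spread between these libraries.

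Complex I takes electrons from NADH through a flavin and a chain of iron-sulfur clusters to ubiquinone, and couples this to proton pumping. Its peripheral arm stands in the matrix and holds the NADH and ubiquinone sites, while its membrane arm pumps protons. The core subunits are those conserved from bacteria, part of them encoded by the mitochondrial genome. The accessory subunits surround them, and assembly factors help to build the complex but are absent from the finished one. Heart muscle depends on oxidative metabolism and is rich in this complex. The transcription factor TFEB drives genes of lysosomes and autophagy through E-box elements in their promoters.

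Promoter sequences (RefSeq, GRCm38.p6, 250 bases before to 50 after the annotated start, 5′ to 3′ on the gene's strand) were found for 40 of the 46 genes. The letters CACGTG, the core of the E-box that TFEB binds, were searched on both strands and occurred in the promoters of Ndufa7 and Ndufv1, 5% of the 40, against 8.09% of all 27025 genes with a promoter entry. The longer form TCACGTGA, which contains CACGTG, occurred in Ndufa7 alone among these genes and in 1.12% of all genes. An element of the nuclear respiratory factor NRF1, which serves many respiratory chain genes, was searched as GCGCA and GCGC with 1 base of any kind between them. It occurred in 9 of the 40 (22.5%) and in 5.19% of all genes. For each motif, all genes with a promoter entry were taken whether or not they were expressed here. Genes matched for expression or base composition were not compared. A match of letters describes the window and does not show binding. Ndufa7 had a second promoter entry (chr17:33824395-33824694, plus strand), which also held both E-box forms and is not shown. Shown are promoters of both genes with an E-box, Ndufa7 (chr17:33824322-33824621, plus strand) and Ndufv1 (chr19:4012706-4013005, minus strand). Beside them stand Ndufa11 (chr17:56717512-56717811, plus strand), an NRF1-type match in the subunit with the highest fold change, and Ndufaf2 (chr13:108158576-108158875, minus strand), the one gene past the threshold, which held none of the 3 motifs. Capitals mark the matched letters.
Ndufa7: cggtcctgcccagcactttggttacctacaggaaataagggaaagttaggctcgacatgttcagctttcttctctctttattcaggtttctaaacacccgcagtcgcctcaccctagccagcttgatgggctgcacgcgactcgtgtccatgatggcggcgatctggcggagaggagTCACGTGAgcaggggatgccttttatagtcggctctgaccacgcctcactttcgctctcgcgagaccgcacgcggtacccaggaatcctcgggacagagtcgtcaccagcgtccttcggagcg
Ndufv1: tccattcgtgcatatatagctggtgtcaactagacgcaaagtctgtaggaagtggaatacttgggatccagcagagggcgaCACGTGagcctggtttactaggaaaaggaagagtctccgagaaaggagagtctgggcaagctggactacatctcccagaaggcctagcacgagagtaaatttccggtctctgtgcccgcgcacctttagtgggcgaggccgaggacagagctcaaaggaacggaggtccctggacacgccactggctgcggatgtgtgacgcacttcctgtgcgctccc
Ndufa11: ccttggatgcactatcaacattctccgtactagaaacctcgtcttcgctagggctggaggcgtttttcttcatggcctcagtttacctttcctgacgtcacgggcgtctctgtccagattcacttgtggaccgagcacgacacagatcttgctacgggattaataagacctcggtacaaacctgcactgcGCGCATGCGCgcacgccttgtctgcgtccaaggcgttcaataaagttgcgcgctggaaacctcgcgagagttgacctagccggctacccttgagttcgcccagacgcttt
Ndufaf2: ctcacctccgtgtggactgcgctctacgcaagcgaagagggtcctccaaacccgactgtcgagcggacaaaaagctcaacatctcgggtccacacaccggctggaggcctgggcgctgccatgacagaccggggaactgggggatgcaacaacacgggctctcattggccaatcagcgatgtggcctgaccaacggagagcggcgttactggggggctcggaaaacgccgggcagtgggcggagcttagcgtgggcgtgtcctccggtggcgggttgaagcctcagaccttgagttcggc

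The libraries were compared in CPM, the counts of a gene scaled to a fixed total per library, which the authors deposited rounded to whole numbers, so the depth of each library is unknown. The sum of each library lay between 999505 and 999655 CPM. Tfeb had 6, 5 and 7 CPM in TFEB-/- and 17, 30 and 23 CPM in wild type, a difference past the threshold (log2 fold change −1.85, limma adjusted p = 0.0267). All 10 cardiomyocyte markers, among them Myh6 and Tnnt2, were abundant in each library, with summed levels of 65502 to 88831 CPM in TFEB-/- and 54246 to 73771 CPM in wild type. Markers of other cells were low. Summed over each list, 10 endothelial markers reached 392 to 476 CPM in TFEB-/- and 445 to 539 CPM in wild type. All 10 had negative log2 fold changes (−0.50 to −0.01), while 79.8% of all genes were above 0, and limma called 0 of the 10. After median-ratio scaling, which took the median of all genes to 0.01, limma called Cldn5 lower (adjusted p = 0.021). An unadjusted p below 0.05 was then found for 5 of the 10, all lower, against 22.3% of all genes. The 8 fibroblast markers reached 117 to 157 CPM in TFEB-/- and 102 to 125 CPM in wild type. Of these, limma called 1, Pdgfra, at 3 CPM in each TFEB-/- library and 2 CPM in each wild-type library (log2 fold change 0.49, adjusted p = 0.00336). After median-ratio scaling it was not called (adjusted p = 0.336). The 7 smooth muscle and pericyte markers reached 306 to 392 CPM in TFEB-/- and 232 to 276 CPM in wild type. Of these, Acta2 averaged 193.0 CPM in TFEB-/- and 84.7 CPM in wild type, and Cspg4 averaged 23.7 CPM and 11.0 CPM. Cspg4 was the only 1 of the 7 past the threshold (log2 fold change 1.06, limma adjusted p = 0.0374), and 4 of the 7 had negative log2 fold changes. The 8 macrophage markers reached 38 to 45 CPM in TFEB-/- and 17 to 28 CPM in wild type. Of these, Ptprc was at 0 in every library. The 7 macrophage markers tested all had positive log2 fold changes (0.44 to 1.13), and limma called 0 of them. The 4 erythrocyte markers reached 6 to 10 CPM in TFEB-/- and 5 to 35 CPM in wild type. In such bulk samples, fewer cells of a type and less RNA per cell cannot be told apart. The part of these cells in the values below was not tested. Transcripts of the mitochondrial genome made up 22.2%, 30.3% and 25.3% of the TFEB-/- libraries and 30.7%, 33.9% and 44.6% of the wild-type libraries. This share enters every CPM value, its part in the differences was tested only by removing these transcripts, and the median log2 fold change (TFEB-/- over wild type) of all 12437 genes tested was 0.24.

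A single complex I gene passed the threshold between TFEB-/- and wild-type cardiomyocytes, the assembly factor Ndufaf2, which was higher in TFEB-/-. All 46 genes reached at least 1 CPM in at least 3 libraries and were tested. With limma on log2(CPM + 0.5) and Benjamini-Hochberg adjustment over all genes, 0 of the 36 subunits passed an adjusted p of 0.05 in either direction. Of the 8 assembly factors 1 was higher and 0 were lower. Over all genes tested 3.92% were called higher and 0.523% lower. An unadjusted p below 0.05 was found for 3 of the 46 genes, Ndufaf2, Ndufaf7 and Ndufa11, against 23.3% of all genes. In the same 3 genes the groups did not overlap, each time with TFEB-/- higher, against 21.2% of all genes higher and 2.28% lower without overlap. None of the 46 was lower without overlap. The 95% interval of the fold change on the deposited scale lay within 2-fold in either direction for all 46 genes and within 1.5-fold for 28 of them. Over all 12437 genes tested, 8600 lay within 2-fold and 3499 within 1.5-fold. These limits are set around 0 and not around the median of all genes.

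**Figure D1:**
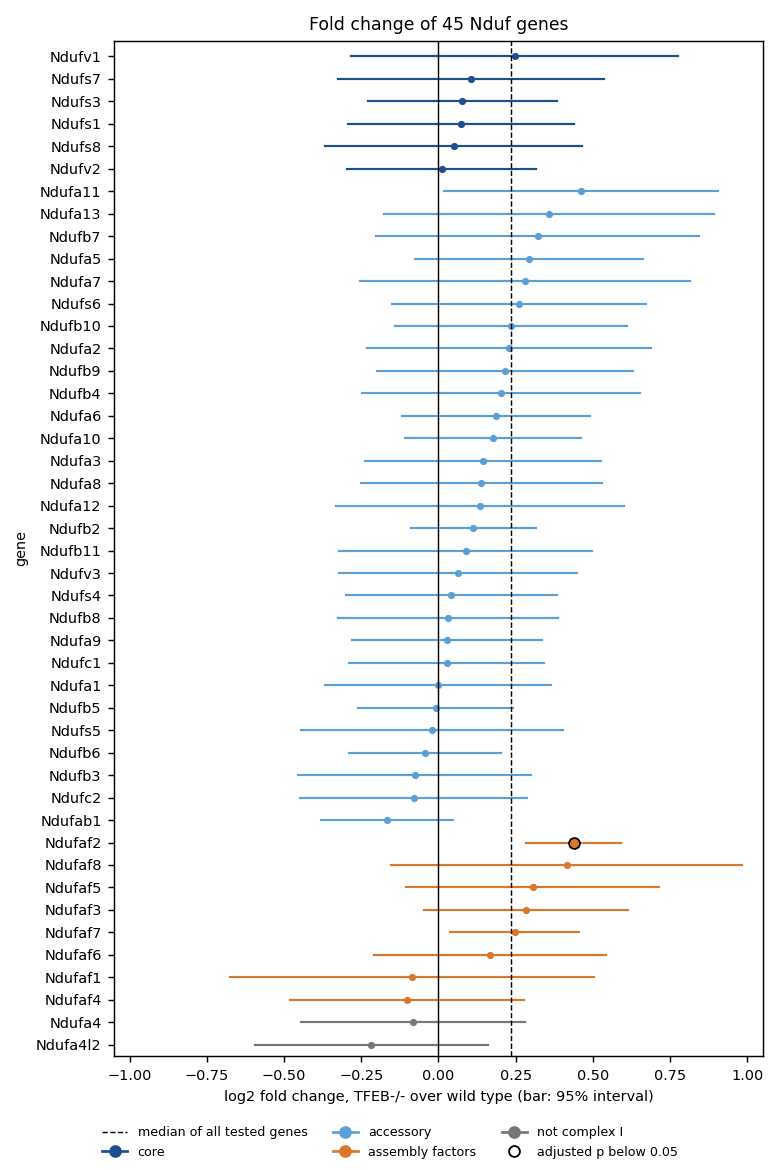
Log2 fold change, TFEB-/- over wild type, on the deposited CPM scale (horizontal axis) of 45 Nduf genes (rows), with the 95% interval from limma as a bar. The dashed line marks the median of all tested genes, 0.24, and the outlined point is Ndufaf2, the one gene past the threshold.

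The subunits lay slightly above 0 on the deposited scale and below the median of all genes. Their median log2 fold change was 0.11, or −0.13 relative to all genes, and 29 of 36 were above 0, against 79.8% of all genes. Without wild type 2 the distance to all genes was −0.0092, so it rested largely on that library. Only 8 of the 36 lay above the median of all genes. The 7 core subunits had a median of 0.08, the 29 accessory subunits of 0.14, the 16 subunits of the peripheral arm of 0.12 and the 19 of the membrane arm of 0.11. The 987 genes whose mean reached 100 CPM had a median of 0.21. The sign turned with the scaling. After median-ratio scaling, which took the median of all genes to 0.01, the median of the subunits was −0.13 and 29 of the 36 were below 0. No subunit or assembly factor passed the threshold with that scaling, against 3.87% of all genes called higher and 1.61% called lower. An unadjusted p below 0.05 was then found for 5 of the 46, all lower, namely Ndufa4l2, Ndufab1, Ndufb3, Ndufb6 and Ndufaf4, against 22.3% of all genes. The 40 nuclear subunits of complexes II to V, a set drawn up after the values were seen, had a median of 0.12 on the deposited scale where limma called 0 of them and 3 (7.5%) had an unadjusted p below 0.05, against 23.3% of all genes on that scale.

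The subunits varied together from library to library. Their summed level was 13004, 11466 and 12864 CPM in the TFEB-/- libraries, against 11458, 12991 and 9558 CPM in the wild-type libraries. The groups overlapped, with wild type 2 at the height of the upper TFEB-/- libraries and wild type 3 lowest of all. Wild type 3 had the lowest value of all 6 libraries in 31 of the 36 subunits (86.1%), against 41.6% of all tested genes. The same library was lowest in 34 of 40 nuclear subunits of complexes II to V (85%), in 9 of the 10 cardiomyocyte markers and in 70.8% of the 987 genes whose mean reached 100 CPM, and it had the highest mitochondrial share. Wild type 2 was the highest of the wild-type libraries in 33 of the 36, against 2640 of all 12437 genes tested. TFEB-/- 2 was the lowest TFEB-/- library in 29 of the 36, against 4845 of all genes tested. The spread was larger within wild type than within TFEB-/- for 32 of the 36 subunits, against 5323 of all 12437 genes tested. Values tied after rounding did not count as lowest or highest. Genes of similar level were not set apart for wild type 2, TFEB-/- 2 or the spread. The median log2 deviation from the gene's mean was −0.05 over the subunits and 0.03 over all genes in TFEB-/- 2. For wild type 3 it was −0.295 and −0.27, and for wild type 2 it was 0.15 and −0.09. TFEB-/- 2 was thus the lowest TFEB-/- library, and wild type 3 the lowest of all, over all genes too. With mitochondrial transcripts removed before scaling, the sums were 16727, 16452 and 17226 CPM in TFEB-/-, against 16550, 19665 and 17273 CPM in wild type. The order of the group means then turned round (16802 CPM in TFEB-/- and 17829 CPM in wild type), and the groups still overlapped. Without wild type 2 the wild-type mean was 16912 CPM. The 8 assembly factors summed to 208, 187 and 214 CPM in TFEB-/-, against 182, 199 and 168 CPM in wild type. The ratio of the subunit sum to the assembly factor sum averaged 61.3 ± 1.2 in TFEB-/- and 61.7 ± 4.33 in wild type (SD, n = 3 each), a difference smaller than the spread.

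**Figure D2:**
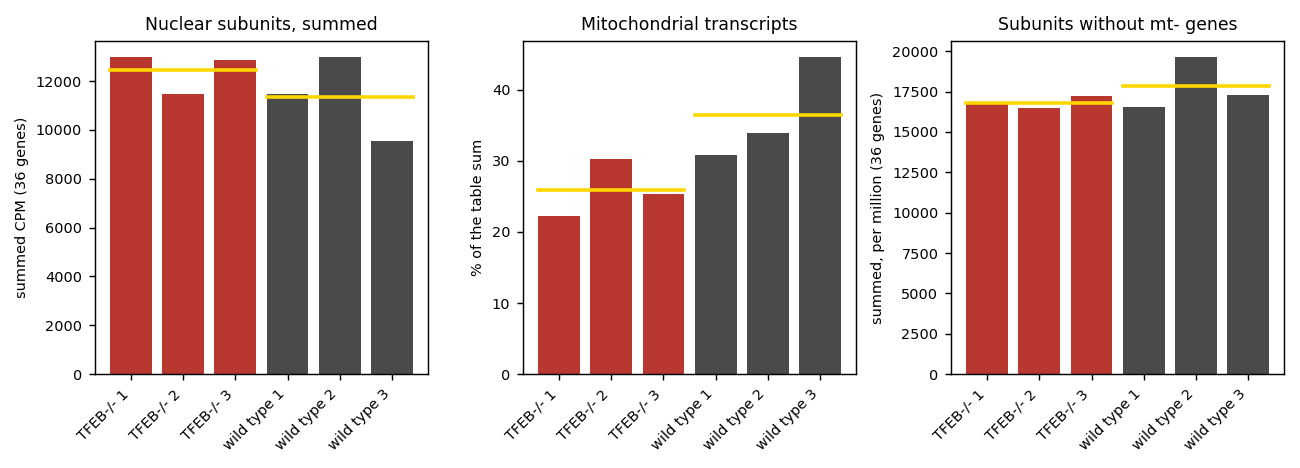
Summed level of the 36 nuclear subunits in CPM (left), share of mitochondrial transcripts in percent of the table sum (middle) and summed subunits in CPM after removal of mitochondrial genes (right) for each library, with group means as yellow lines. The TFEB-/- mean is above the wild-type mean in the left panel (12445 and 11336 CPM) and below it in the right panel (16802 and 17829 CPM).

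**Figure D3:**
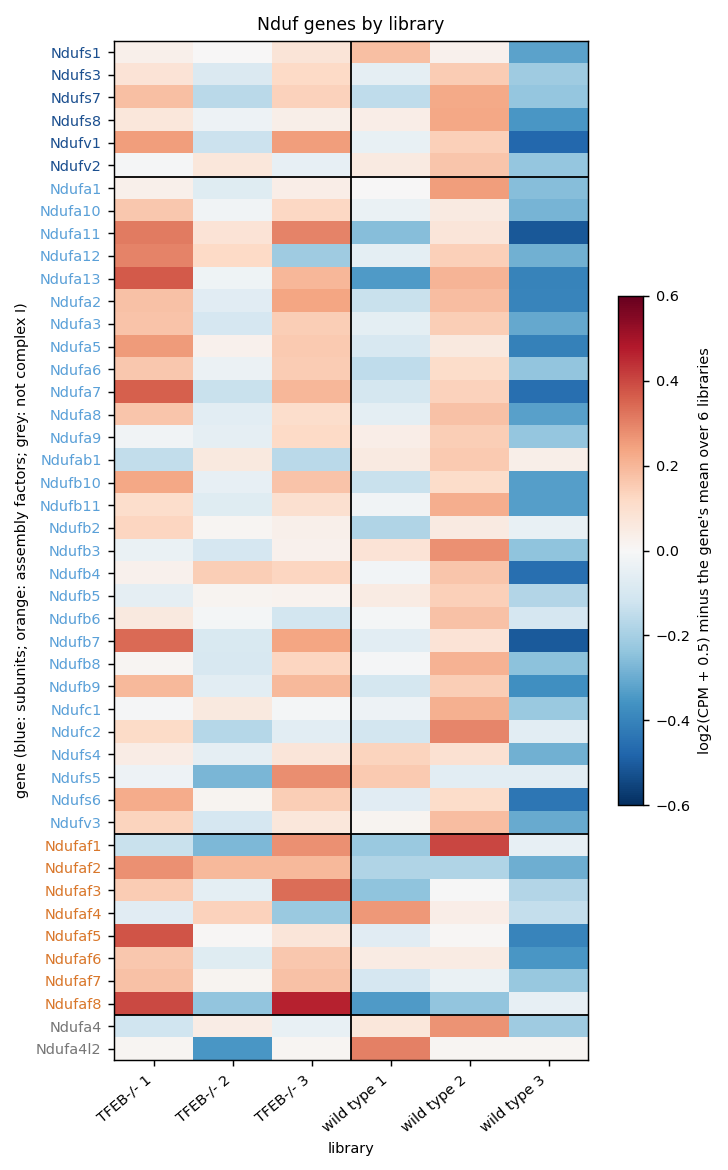
Log2(CPM + 0.5) of 45 Nduf genes (rows) minus its mean over the 6 libraries, with TFEB-/- libraries left of wild-type libraries. The column of wild type 3 is the lowest in 30 of the 35 subunits drawn and in 4 of 8 assembly factors.

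The core subunits encoded in the nucleus all belong to the peripheral arm, and in the 6 described here the groups overlapped. Ndufv1, which binds NADH and the flavin, had 932, 716 and 934 CPM in TFEB-/-, against 760, 866 and 566 CPM in wild type. Ndufv2, an iron-sulfur protein beside it, had 486, 512 and 472 CPM in TFEB-/-, against 506, 547 and 415 CPM in wild type. Ndufs1, which carries several iron-sulfur clusters of the chain, had 548, 538 and 567 CPM in TFEB-/-, against 609, 547 and 430 CPM in wild type. Wild type 3 was the lowest library in each, and the groups overlapped. Ndufs7, which lies at the ubiquinone site, had 381, 300 and 370 CPM in TFEB-/-, against 302, 393 and 286 CPM in wild type. Its groups overlapped. Ndufs3, of the same region, had 356, 317 and 366 CPM in TFEB-/-, against 324, 374 and 290 CPM in wild type. Ndufs8, which holds the clusters that lead to ubiquinone, had 236, 221 and 231 CPM in TFEB-/-, against 232, 265 and 177 CPM in wild type. The log2 fold changes of these 6 ran from 0.01 for Ndufv2 (95% interval −0.30 to 0.32) to 0.25 for Ndufv1 (95% interval −0.28 to 0.78), with limma adjusted p-values of 0.504 to 1.

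Among accessory subunits, Ndufa11 had the highest fold change. It is a membrane-arm subunit (ENSMUSG00000002379, GRCm38 chromosome 17, 56717767 to 56722141, plus strand, protein coding). Its values were 366, 312 and 363 CPM in TFEB-/-, against 247, 310 and 207 CPM in wild type, and the lowest TFEB-/- library stood 2 CPM above the highest wild-type library. The means were 347.0 ± 30.3 CPM in TFEB-/- and 254.7 ± 51.9 CPM in wild type (SD, n = 3 each), a log2 fold change of 0.46 (SE 0.17, 95% interval 0.02 to 0.90) that missed the threshold (limma unadjusted p = 0.0439, adjusted p = 0.201). That fold change and interval are on the deposited scale, and Ndufa11 lay 0.23 above the all-gene median. After median-ratio scaling its log2 fold change was 0.22 (limma unadjusted p = 0.146, adjusted p = 0.394). Ndufa5, a peripheral-arm subunit, had 378, 322 and 353 CPM in TFEB-/-, against 296, 330 and 239 CPM in wild type (log2 fold change 0.29, adjusted p = 0.269). Ndufa7, the gene with the long E-box form, had 214, 152 and 192 CPM in TFEB-/-, against 155, 184 and 122 CPM in wild type (log2 fold change 0.28, adjusted p = 0.446). Its groups overlapped.

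Ndufa13 and Ndufb7 also belong to the membrane arm. Ndufa13, known as GRIM-19 too, had 524, 398 and 465 CPM in TFEB-/-, against 320, 467 and 307 CPM in wild type, and its log2 fold change of 0.36 had a 95% interval of −0.17 to 0.89. Ndufb7 had 334, 248 and 311 CPM in TFEB-/-, against 253, 280 and 186 CPM in wild type (log2 fold change 0.32). In both, TFEB-/- 2 was the lowest TFEB-/- library and wild type 2 the highest wild-type library, which closed the gap between the groups.

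On the peripheral arm, Ndufs4 and Ndufs6 are accessory subunits whose loss in humans and mice impairs assembly or stability of the complex. Ndufs4 had 207, 193 and 211 CPM in TFEB-/-, against 220, 214 and 164 CPM in wild type (log2 fold change 0.04). Ndufs6 had 336, 291 and 319 CPM in TFEB-/-, against 274, 310 and 213 CPM in wild type (log2 fold change 0.26). Groups overlapped in both genes, and wild type 3 was the lowest library in each. Over the 29 accessory subunits the log2 fold changes ran from −0.17 to 0.46 and the limma adjusted p-values from 0.201 to 1.

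On the low side stood Ndufab1, the mitochondrial acyl carrier protein, which serves fatty acid synthesis in the matrix as well as complex I. It had 257, 297 and 255 CPM in TFEB-/-, against 296, 318 and 292 CPM in wild type. The log2 fold change of −0.17 (SE 0.08, 95% interval −0.38 to 0.05) did not pass (limma adjusted p = 0.276), and it was the lowest of the 36 subunits. Ndufc2 had 112, 92 and 99 CPM in TFEB-/-, against 96, 127 and 99 CPM in wild type, and Ndufb3 had 122, 117 and 128 CPM in TFEB-/-, against 133, 152 and 106 CPM in wild type. Both are membrane-arm subunits, and their groups overlapped (log2 fold changes −0.08 for each). Ndufa4, the cytochrome c oxidase subunit, had 641, 717 and 674 CPM in TFEB-/-, against 730, 839 and 600 CPM in wild type (log2 fold change −0.08, adjusted p = 0.731). Ndufa4l2, a paralog known to be induced by hypoxia, was at 4, 3 and 4 CPM in TFEB-/- and 5, 4 and 4 CPM in wild type, a range of 2 rounding steps (log2 fold change −0.22, adjusted p = 0.405).

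The assembly factors held the only call. Ndufaf2 (ENSMUSG00000068184, chromosome 13, 108002715 to 108158623, minus strand, protein coding) is a paralog of the subunit Ndufa12 and is known to occupy its place on the assembling peripheral arm. It had 18, 17 and 17 CPM in TFEB-/-, against 13, 13 and 12 CPM in wild type. The means were 17.3 ± 0.577 CPM in TFEB-/- and 12.7 ± 0.577 CPM in wild type (SD, n = 3 each), a log2 fold change of 0.44 (SE 0.06, 95% interval 0.28 to 0.59, limma adjusted p = 0.0292), or 0.20 above the all-gene median. The call rests on a spread of 1 rounding step within each group. It was lost without any 1 of the 6 libraries (limma adjusted p = 0.0528 to 0.0991) and after median-ratio scaling, where the log2 fold change was 0.21 and the adjusted p = 0.291. It was also lost with mitochondrial transcripts removed (adjusted p = 0.263), with a filter of 5 CPM (adjusted p = 0.0913) and with robust hyperparameters (adjusted p = 0.0811).

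The other 7 assembly factors did not pass. Ndufaf7, a methyltransferase, had 28, 25 and 28 CPM in TFEB-/-, against 23, 24 and 21 CPM in wild type, and the groups were 1 CPM apart (log2 fold change 0.25, limma adjusted p = 0.168). It lay 0.01 above the all-gene median. After median-ratio scaling its log2 fold change was 0.01 (limma adjusted p = 0.948). Ndufaf5, which hydroxylates Ndufs7, had 26, 20 and 21 CPM in TFEB-/-, against 19, 20 and 15 CPM in wild type (log2 fold change 0.30). Its partner Ndufaf8 had 22, 14 and 23 CPM in TFEB-/-, against 13, 14 and 16 CPM in wild type (log2 fold change 0.42, 95% interval −0.15 to 0.98). TFEB-/- 2 stood within the wild-type range in both. Ndufaf3 and Ndufaf4 act together on the ubiquinone-binding part. Ndufaf3 had 29, 25 and 33 CPM in TFEB-/-, against 22, 26 and 23 CPM in wild type (log2 fold change 0.28). Ndufaf4 had 39, 45 and 35 CPM in TFEB-/-, against 49, 42 and 37 CPM in wild type (log2 fold change −0.10). The partners thus lay on opposite sides of 0, each with overlapping groups, and their difference was not tested. Ndufaf1, of the complex that assembles the membrane arm, had 33, 30 and 44 CPM in TFEB-/-, against 31, 48 and 35 CPM in wild type (log2 fold change −0.08). Ndufaf6, needed for the mitochondrially encoded subunit mt-Nd1, had 13, 11 and 13 CPM in TFEB-/-, against 12, 12 and 9 CPM in wild type (log2 fold change 0.17). The median of the 8 assembly factors was 0.26 on the deposited scale and 0.03 relative to all genes.

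Of 13 assembly factors without an Nduf name, 12 were matched to a row, and limma called 0 of them in either direction, while 4 (33.3%) had an unadjusted p below 0.05, against 23.3% of all genes. The groups did not overlap in 5 (41.7%), with TFEB-/- higher, against 21.2% of all genes. Their median log2 fold change was 0.24, or 0.0029 relative to all genes. After median-ratio scaling it was 0.0046, with 6 of the 12 below 0, and limma called 0 of them. An unadjusted p below 0.05 was then found for 2 (16.7%), both lower, against 22.3% of all genes. Ecsit, a partner of Ndufaf1, had 112, 97 and 112 CPM in TFEB-/-, against 108, 109 and 87 CPM in wild type. Aifm1, which takes part in import of subunits, had 100, 90 and 91 CPM in TFEB-/-, against 88, 77 and 70 CPM in wild type. These had the highest CPM of the 12, not corrected for length, and the groups overlapped for Ecsit but not for Aifm1 (log2 fold change 0.26, adjusted p = 0.223).

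The 7 core subunits encoded by the mitochondrial genome (mt-Nd1 to mt-Nd6 and mt-Nd4l) summed to 67220, 92471 and 72979 CPM in TFEB-/-, against 92617, 97965 and 122009 CPM in wild type. All 7 had negative log2 fold changes, from −0.64 for mt-Nd1 to −0.21 for mt-Nd5, and limma called 0 of them, against 0.523% of all genes called lower. An unadjusted p below 0.05 was found for 3 of the 7 (42.9%), against 23.3% of all genes. In 5 of the 7 the groups did not overlap, with TFEB-/- lower, against 2.28% of all genes. The 7 are part of the mitochondrial share of each library and are not independent of each other. That share enters every CPM value, so the 2.28% is not independent of it either. Overlap was not counted on another scale. Set against the 7 nuclear core subunits, mitochondrial core transcripts stood at a ratio of 16.5, 25.6 and 17.7 in TFEB-/- and of 24.9, 24.0 and 40.9 in wild type, with overlapping groups. Whether the counting used strand is not given in the sources used here, so reads of mt-Nd5 and of mt-Nd6, its neighbour on the other strand, may not be fully separated, and mt-Nd4l overlaps mt-Nd4.

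Several Nduf genes have near-identical copies elsewhere in the genome or share bases with an overlapping gene. Whether a difference between a gene and its copy lies in expression or in the assignment of reads was not tested. A transcript of another gene matched 12 of the 46 over at least 200 bases at 95% identity or more, and for 5 of them that gene reached 1 CPM in a library. Ndufa12, the subunit that takes the place of Ndufaf2, had 318, 281 and 223 CPM in TFEB-/-, against 248, 286 and 212 CPM in wild type. Its copy Gm15920 was listed at 100 CPM in TFEB-/- 3 and at 0 in the other 5 libraries. The sum of both was 318, 281 and 323 CPM in TFEB-/-, against 248, 286 and 212 CPM in wild type, and its log2 fold change was 0.31 (limma adjusted p = 0.237), against 0.14 for Ndufa12 alone (adjusted p = 0.648). The groups overlapped in both. Ndufs5, a membrane-arm subunit, had 141, 119 and 175 CPM in TFEB-/-, against 161, 138 and 138 CPM in wild type. Its copy BC002163 was at 30, 34 and 0 CPM in TFEB-/- and at 0, 32 and 0 CPM in wild type. The copy was thus at 0 in TFEB-/- 3 and wild type 1, the libraries with the highest Ndufs5. It was also at 0 in wild type 3, where Ndufs5 had the same 138 CPM as in wild type 2. The sum had a log2 fold change of 0.09, against −0.02 for Ndufs5 alone.

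Ndufb4, of the membrane arm, had 67, 73 and 72 CPM in TFEB-/-, against 65, 74 and 48 CPM in wild type. Its copy Gm3244, which GENCODE names Ndufb4c, had 170, 152 and 159 CPM in TFEB-/-, against 132, 149 and 95 CPM in wild type. The sum was 237, 225 and 231 CPM in TFEB-/-, against 197, 223 and 143 CPM in wild type, without overlap by 2 CPM (log2 fold change 0.32, limma adjusted p = 0.315). Ndufab1 had a copy, Gm4459, listed at 8 CPM in wild type 3 only. Ndufb5 shares 216 bases with Mrpl47, a gene of another function, and was not summed with it. With the copies added, limma called 0 of these 4 sums (unadjusted p = 0.0653 to 0.419).

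**Figure D4:**
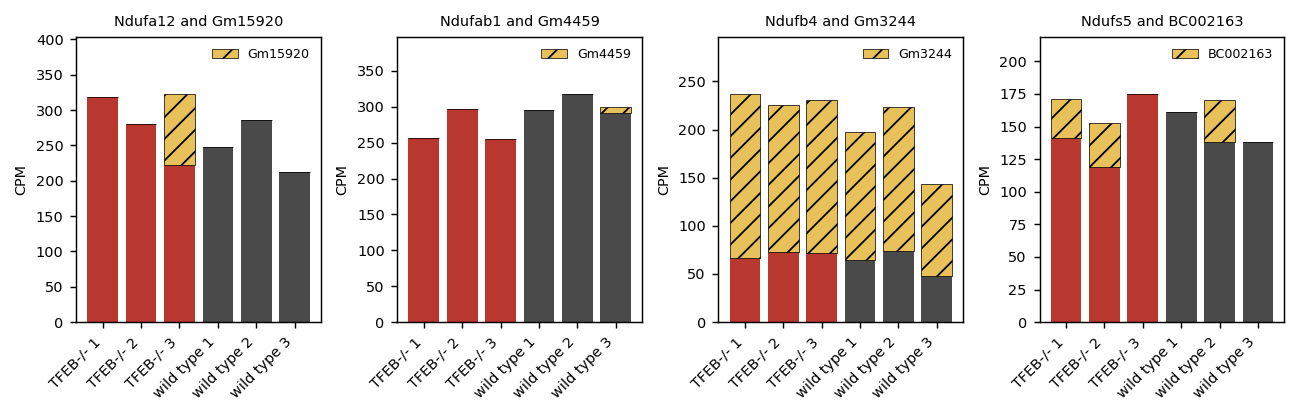
CPM of 4 subunits (solid bars, TFEB-/- in red and wild type in grey) with their near-identical copies stacked on top (hatched) in each library. The copy of Ndufa12 has 100 CPM in TFEB-/- 3 alone, and the copy of Ndufs5 is above 0 in 3 of the 6 libraries.

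Levels of different genes were compared per length, as the mean CPM over all 6 libraries per kilobase of the principal transcript. Ndufa4 was the highest of the 46 genes, with 1148 CPM per kilobase. Among subunits the membrane-arm genes Ndufb9 (809.7 CPM per kilobase) and Ndufb8 (788 CPM per kilobase) stood highest. The 8 assembly factors ran from 10.8 CPM per kilobase for Ndufaf6 to 25.4 CPM per kilobase for Ndufaf1, and all 36 subunits were above them. Ndufa4l2 was the lowest of the 46, with 4.28 CPM per kilobase. The order depends on the transcript chosen for some genes, since Ndufb2 came to 29.6 CPM per kilobase with its longest principal transcript and to 284.2 with its shortest.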

How the data were processed

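RNA of 6 libraries (3 TFEB-/-, 3 wild type, grouped by their titles) was compared. Per the labels' protocols, stranded poly(A) libraries were made from 400 ng of RNA and read as pairs of 75 bases. The authors deposited 1 value per gene and library, treated here as a score: CPM made with kallisto, per the name of the table, rounded to whole numbers. The submitters' processing notes name GRCm38 and several tools, whose roles are not given in the sources used here. Read depth is unknown, so no counting interval can be given, and rounding leaves 0.5 CPM on either side of a value.

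Names turned into dates (26) were restored, missing names (303) replaced by Ensembl IDs and entries of 1 symbol summed (46450 symbols). The 12437 genes that reached 1 CPM in 3 or more libraries were fitted with limma 3.58.1 (R 4.3.3) on log2(CPM + 0.5), with genotype as the only term and a mean-variance trend. P-values are two-sided and Benjamini-Hochberg adjusted over these genes (threshold 0.05). The fit was tested on simulated data, where it missed most changes of 1.5-fold and of 2-fold. Fold changes understate those of low genes.

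The Nduf genes and gene lists were chosen with earlier results of these data known. Values by library are given for genes past the threshold, the 6 smallest p-values in each direction, core subunits (1 is not reported here), assembly factors, Ndufa4 and Ndufa4l2. Ndufa12, Ndufa13, Ndufb4, Ndufb7, Ndufs4, Ndufs5, Ndufs6 and Ndufa7 were added after their values were seen. Positions and lengths are from GENCODE M21, and near-identical transcripts were found with blastn 2.17.0. Alternatives were other pseudocounts, filters, scalings and variance settings, a block for the replicate number, leaving out each library and, added after the data were seen, summed copies, combinations with median-ratio scaling and the mean of the subunit sums without wild type 2.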

Additional observations from a re-analysis of the deposited data

Results flagged for a closer look

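Gm15920, a near-identical copy of Ndufa12 that no comparison uses as a gene of its own, was listed at 100 CPM in TFEB-/- 3 and at 0 in the other TFEB-/- libraries and in all wild-type libraries. Ndufa12 itself was at 223 CPM in TFEB-/- 3, against 318 and 281 CPM in the other TFEB-/- libraries.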

How the results depend on the processing

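No subunit passed the threshold in limma in any of the 25 alternatives, in either direction, with 1 at an unadjusted p below 0.05 on the deposited scale. The count of higher assembly factors was 0 instead of 1 with a filter of 5 CPM, median-ratio scaling (also with the block or with copies summed), removal of mitochondrial transcripts, quantile normalization, the replicate block (adjusted p = 0.0946 for Ndufaf2), robust hyperparameters and whenever a library was left out. The count of lower assembly factors was 0 to 1 over the fits that left out a library, on both scales, the 1 being Ndufaf4 with median-ratio scaling and without TFEB-/- 2 (adjusted p = 0.0438). Among all genes, 487 calls upward became 159 with the replicate block, 256 with the block and median-ratio scaling, 780 with robust hyperparameters and 79 to 516 without 1 library (248 without wild type 3 on the deposited scale). The 65 calls downward became 200 with median-ratio scaling, also with copies summed, 188 without mitochondrial transcripts, 172 with quantile normalization, 26 with the replicate block, 121 with the block and median-ratio scaling, and 39 to 308 without 1 library. The cause of these shifts was not tested. The deviations of same-numbered libraries from their group means had correlations across genes of 0.144, −0.0492 and 0.0883. With 3 libraries per group these values cannot decide whether the numbers mark pairs.

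The subunit median relative to all genes was −0.13 and stayed negative in every alternative (−0.20 to −0.01), nearest to 0 without wild type 2. For assembly factors it ran from −0.07 to 0.08. Of 29 named genes, 18 kept their side of the all-gene median throughout; Ndufa4l2 was not tested with the filter of 5 CPM. Ndufa12 was at 0.078 and 0.069 with copies summed, without and with median-ratio scaling, and Ndufb4 at 0.088 and 0.079. Over the fits without 1 library, the relative values were −0.19 to 0.030 for Ndufa12, −0.050 to 0.31 for Ndufa13, −0.010 to 0.16 for Ndufa5, −0.031 to 0.18 for Ndufa7, −0.090 to 0.12 for Ndufaf3, −0.064 to 0.055 for Ndufaf7, −0.13 to 0.096 for Ndufb4, −0.0036 to 0.20 for Ndufb7, −0.043 to 0.14 for Ndufs6, −0.27 to 0.0051 for Ndufs7 and −0.079 to 0.14 for Ndufv1. Rounding to whole CPM limits Ndufa4l2 and the assembly factors most.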
